A study of Mus musculus with 24 samples.

Results

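The 200 most counted autosomal long intergenic noncoding RNAs (lincRNAs) of mouse frontal cortex were examined. They were chosen as the rows of type lincRNA outside chromosomes X and Y with the highest sums of counts over all 24 libraries. They are 200 of 2753 such rows, of which 1395 had at least 1 count, in a table of 33000 genes. The libraries were made by 3'Pool-seq, a method in which an anchored oligo-dT primer starts reverse transcription at polyA and fragments next to that primer are sequenced. They came from frontal cortex of C57BL/6 mice aged 3 months, of which 3 were wild-type (WT) and 3 homozygous for the GFAP-IL6 transgene. That line carries Il6 under the promoter of Gfap, so that astrocytes make interleukin 6. From each mouse came 4 libraries. Tagmentation, the step that cuts cDNA and adds adapters, used 2 ng or 1 ng of cDNA, and each amount was run in sets named A and B, whose difference the labels do not explain. The mouse was the replicate (n = 3 per genotype).

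Long noncoding RNAs are transcripts with no long reading frame, and many are spliced and polyadenylated like mRNA. Some act in the nucleus as scaffolds: Neat1 builds paraspeckles, Malat1 sits in nuclear speckles, and Meg3 comes from the maternal allele of an imprinted domain. Others are known as precursors, since microRNAs or small nucleolar RNAs (snoRNAs) are cut from their exons or introns. In the nervous system many are made by neurons and their progenitors, while a smaller number are known from immune cells.

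The assay reads the 3' end of a transcript, so the annotated ends of some of the lincRNAs named below are shown here. Each is the last 60 bases of the transcript that reaches farthest 3' in GENCODE vM21 on build mm10, with the polyadenylation hexamer AATAAA or ATTAAA in capitals. Both annotated ends of Neat1 are given, since its record holds a long and a short form and the count does not tell them apart.
Malat1 (chr19:5795690-5795749, minus strand): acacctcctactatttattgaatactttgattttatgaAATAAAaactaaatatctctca
Meg3 (chr12:109571667-109571726, plus strand): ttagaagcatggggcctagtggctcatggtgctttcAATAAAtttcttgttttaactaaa
Neat1 long form (chr19:5824708-5824767, minus strand): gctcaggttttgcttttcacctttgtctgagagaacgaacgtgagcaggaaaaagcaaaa
Neat1 short form (chr19:5842307-5842366, minus strand): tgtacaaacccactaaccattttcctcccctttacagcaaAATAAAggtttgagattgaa
AW112010 (chr19:11047612-11047671, minus strand): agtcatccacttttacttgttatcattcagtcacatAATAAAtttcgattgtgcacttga
Gm3764 (chr3:88229900-88229959, plus strand): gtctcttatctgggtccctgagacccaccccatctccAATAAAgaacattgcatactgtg
RP23-105M18.2 (chr3:21997678-21997737, minus strand): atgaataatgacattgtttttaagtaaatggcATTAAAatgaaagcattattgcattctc
D130017N08Rik (chr5:143768516-143768575, plus strand): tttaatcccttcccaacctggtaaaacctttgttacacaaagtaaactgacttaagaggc
Snhg6 (chr1:9941959-9942018, minus strand): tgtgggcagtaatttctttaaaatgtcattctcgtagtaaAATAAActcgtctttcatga
The long form of Neat1 and D130017N08Rik have neither hexamer in this window, and the other 7 ends have 1. The end of 2900052N01Rik, not shown, also has 1. Over all 192 of the 200 lincRNAs with a vM21 record, 133 (69.3%) had a hexamer in the last 50 bases. The share was 48.7% among 2495 other autosomal lincRNAs of the table and 72% among 20597 protein-coding genes. The median transcript length in these groups was 1669, 917 and 2596 bases, and the shares given here were not adjusted for it. A run of 8 A within the transcript, where an oligo-dT primer could also anneal, was present in 26.6%, 17.6% and 25.8% of the groups. The longest such run was 12 bases in the Malat1 transcript and 16 in that of Meg3. Whether the counted reads came from the printed ends or from inner sites was not tested. The 200 were selected on counts from this assay, so these shares are descriptions.

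The later annotation classes some of the 200 differently. Of the 192 with a record, 148 are still lincRNA and 44 are of another type, among them 15 that share a bidirectional promoter, 14 antisense and 6 protein-coding genes. 6330403K07Rik, Gm11549 and RP24-317M4.6 are among the 6 now listed as protein coding. The transcripts had a median of 3 exons, and 29 lincRNAs had a single exon. Exons of 66 overlap a gene on the other strand. The methods say that the libraries keep strand orientation, while the strand setting of the counting is not given in the sources used here.

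Counts were concentrated on a few transcripts. The 200 together took 3.36% of all counts, and of their own counts Malat1 took 55.4%, Yam1 27.7% and Meg3 6.87%, leaving 10% to the other 197. The sums over the 24 libraries were 2103571 for Malat1, 1051196 for Yam1 and 260706 for Meg3. The fourth was 6330403K07Rik with 60504, followed by 1700020I14Rik, the transcript known as Cyrano, with 31698. Pantr1, which lies beside the neural factor gene Pou3f3, had 25524, Gm11549 had 10437 and Snhg20 had 9612. Snhg6 had 8147, 1810058I24Rik 7611, Gm3764 7379 and 9530059O14Rik 6677. The median over all 200 was 640. At the lower limit, 9430065F17Rik (278) and RP23-304A10.2 (272) were just inside, and 6230415J03Rik (270) and Gm26588 (269) just outside. In all, 189 of the 200 had a count in every library and the others missed 1 library. The study did not normalize counts for gene length, since its method targets the 3' end. The tags counted are PCR reads without molecular identifiers, so a transcript can be counted more than once. Per kilobase of the deposited gene length, the level in CPM (counts scaled to a common library total) was 6222 for Yam1, 2626 for Malat1, 359.6 for 6330403K07Rik and 139.5 for Meg3. A value per kilobase of such tags moves with the gene length as well as with the level.

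**Figure D1:**
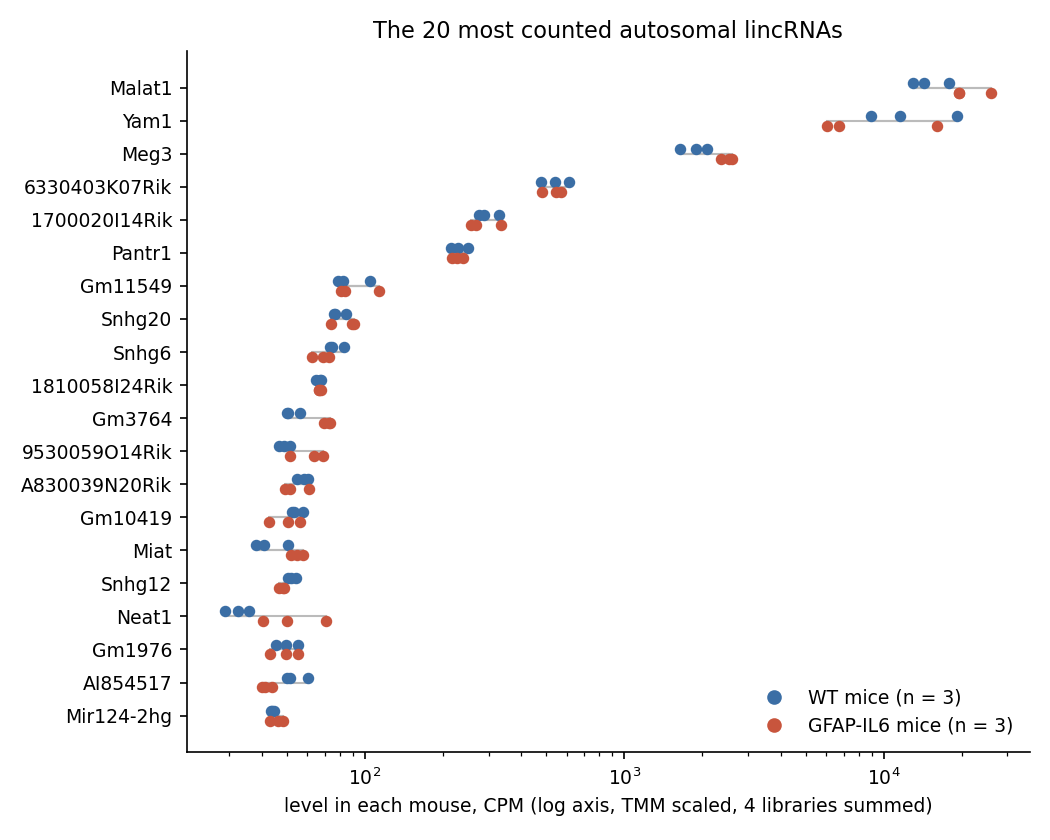
Levels of the 20 most counted lincRNAs in each mouse, in CPM on a log axis after TMM scaling, with 1 point per mouse (blue, 3 WT; red, 3 GFAP-IL6) and a grey line over the range. Means over the 6 mice run from 18340 CPM for Malat1 to 43.1 CPM for Neat1, and the points of Yam1, from 6060 to 19148 CPM, spread most.

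Yam1 varied widely between mice of the same genotype. Its level was 8894, 11547 and 19148 CPM in WT mice 1, 2 and 3, and 16001, 6709 and 6060 CPM in GFAP-IL6 mice 1, 2 and 3. The highest values were in WT mouse 3 and GFAP-IL6 mouse 1, the mice with the lowest totals (7852743 and 9534116 counts, against 18236001 to 37582644 in the other 4). The difference between genotypes, a log2(Fold-Change) of -0.46 ± 0.30 (SE), did not pass the test (edgeR adjusted p = 0.751). Without GFAP-IL6 mouse 1 it was -1.05 with an adjusted p of 0.0343, and with no filter on low counts -0.46 with 0.000179. In vM21 the same identifier is Gm42418 (chr17:39846958-39848788, plus strand), and it overlaps a ribosomal RNA gene on the other strand. That gene, listed as Rn18s-rs5, had 3.02, 4.48 and 8.79 CPM in the WT mice and 8.22, 3.02 and 3.01 CPM in the GFAP-IL6 mice. It was thus highest in the same pair of mice as Yam1, at a far lower level. How the reads of this locus were divided between the strands was not tested. Gm26917, at the same locus, had 6.19, 9.47 and 12.3 CPM in WT and 9.49, 8.44 and 10.4 CPM in GFAP-IL6. Ribosomal RNA genes have many near-identical copies, so counts at this locus are uncertain, and the part of rRNA in them was not tested.

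The SD over the mice of a genotype, as a percent of the mean, was 40.3% in WT and 58.0% in GFAP-IL6 for Yam1, 16.9% and 17.5% for Malat1 and 11.9% and 4.81% for Meg3. Its median over the 200 was 15.5% in WT and 13.0% in GFAP-IL6. By rank the WT median was 8.403% for ranks 1 to 20, 12.7% for ranks 21 to 100 and 18.7% for ranks 101 to 200, so that Malat1 varied more than the median of its neighbours in rank. 1810058I24Rik was steady, with 66.6 ± 1.77 CPM in WT and 66.8 ± 0.660 CPM in GFAP-IL6 (SD, n = 3 each). By rank, the median standard error of the genotype log2(Fold-Change) was 0.101 for ranks 1 to 20, 0.160 for ranks 21 to 100 and 0.245 for ranks 101 to 200.

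The share of all counts on the 200 was 3.25%, 3.08% and 3.59% in WT mice 1 to 3 and 4.77%, 3.23% and 3.22% in GFAP-IL6 mice 1 to 3. GFAP-IL6 mouse 1 stands above the rest, and the other 5 mice overlap. The means were 3.31% ± 0.259 in WT and 3.74% ± 0.893 in GFAP-IL6 (SD, n = 3 each), a difference of 0.434 percentage points (exact permutation test, two-sided, p = 0.70, smallest possible 0.1). Without GFAP-IL6 mouse 1 the difference was -0.0817. Without the rRNA-like loci Yam1 and Gm26917 it was 0.769, with no overlap between 2.35%, 1.93% and 1.73% in WT and 3.18%, 2.55% and 2.60% in GFAP-IL6 (exact p = 0.1, the smallest possible), and without Meg3 and Malat1 it was -0.325 (exact p = 0.5). Malat1 and Yam1 pulled in opposite directions. Malat1 took 1.49% ± 0.278 in WT and 2.18% ± 0.352 in GFAP-IL6, with no overlap (exact p = 0.1, the smallest possible), while Yam1 took 1.30% ± 0.50 and 0.964% ± 0.545. The other 197 took nearly the same share in every mouse, from 0.314% in WT mouse 3 to 0.344% in WT mouse 1.

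**Figure D2:**
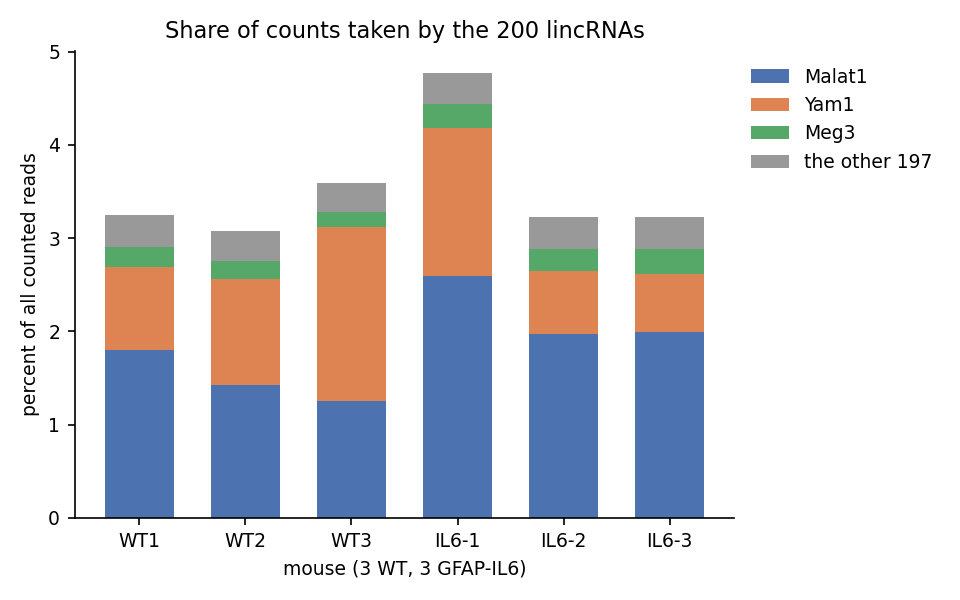
Percent of all counted reads taken by Malat1, Yam1, Meg3 and the other 197 lincRNAs in each of the 6 mice, as stacked bars (IL6-1 to IL6-3 are GFAP-IL6 mice 1 to 3). The Yam1 part is 1.86% in WT mouse 3 and 1.59% in GFAP-IL6 mouse 1 and at most 1.14% in the other 4, while the grey part hardly changes.

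The labels were first checked on the transgene. Il6 was at 0.260, 0.166 and 0 CPM in the WT mice and at 3.16, 1.58 and 4.23 CPM in the GFAP-IL6 mice. Gfap, the intermediate filament of astrocytes, was 19.95 ± 3.78 CPM in WT and 109.6 ± 33.4 CPM in GFAP-IL6 (log2(Fold-Change) 2.44 ± 0.18, edgeR adjusted p = 1.59e-06). Both separated the genotypes in every mouse.

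Between genotypes, 5 of the 200 lincRNAs passed an adjusted p of 0.05, with 4 higher and 1 lower in GFAP-IL6. All 200 had passed the filter on low counts. AW112010, Neat1, Gm3764 and Meg3 rose, by log2(Fold-Change) values between 0.41 and 1.002, and RP23-105M18.2 fell by 0.92 on the log2 scale. That is 2.5% of the 200, against 1.8% of the 14621 genes tested, where 1.74% were higher and 0.0547% lower. A single lincRNA, AW112010, was a differentially expressed gene (DEG), a gene with a log2(Fold-Change) beyond 1 in either direction as well as an adjusted p below 0.05, against 1.23% of all genes. Its fold change lay just above that limit. At an unadjusted p under 0.05 there were 28 of 200 (14%) against 8.75% of all genes. The median log2(Fold-Change) was -0.02 over the 200 and -0.01 over all genes, and the median standard error was 0.20 and 0.14. In 18 of the 200 all GFAP-IL6 mice were higher than all WT mice (8.43% of all genes tested) and in 21 all were lower (5.93% of all genes tested). Thinned to equal totals, Gm3764 (0.42, adjusted p = 0.0965), Meg3 (0.41, 0.0505) and RP23-105M18.2 (-0.78, 0.447) did not pass. In bulk cortex, fewer cells of a type and less RNA per cell cannot be told apart.

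**Figure D3:**
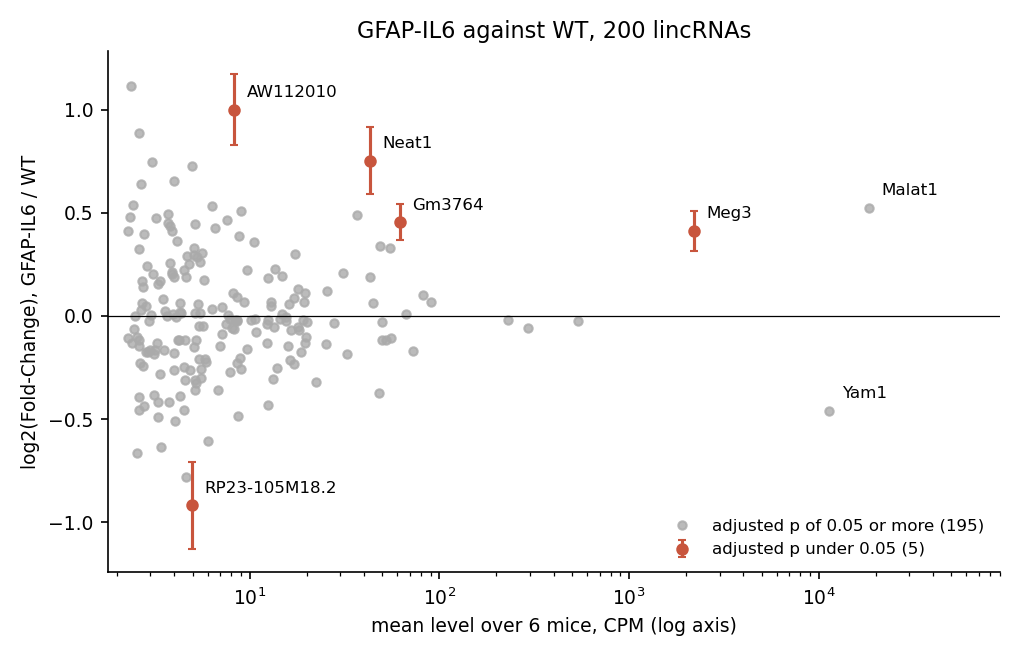
log2(Fold-Change) of GFAP-IL6 over WT against mean CPM over 6 mice (log axis) for the 200 lincRNAs, with the 5 that passed an adjusted p of 0.05 in red with their standard errors. AW112010 lies highest among the red points at 1.002 and RP23-105M18.2 lowest at -0.92, and Malat1 and Yam1, in grey, did not pass.

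Of the lincRNAs listed for nuclear bodies and nuclear retention, 4 were among the 200, and 2 rose while 2 did not pass. Over all genes tested, 1.74% rose. This list and those below were chosen with earlier results of these data known, so the calls in them are descriptions. Neat1 was 28.9, 35.8 and 32.3 CPM in the WT mice and 40.3, 50.2 and 70.8 CPM in the GFAP-IL6 mice. Whether these counts came from its long or its short form was not tested. The genotypes do not overlap, and GFAP-IL6 mouse 3 is the highest, as it is for Gfap and Il6. Among the GFAP-IL6 mice Neat1 was lowest in mouse 1 and Il6 in mouse 2, and a link was not tested. The log2(Fold-Change) was 0.75 ± 0.16 (adjusted p = 0.0228), and between 0.70 and 0.88 within each of the 4 combinations of amount and set, in all of which it passed. The call was lost without WT mouse 1 (0.67, adjusted p = 0.103), without GFAP-IL6 mouse 2 (0.81, 0.05004) and without GFAP-IL6 mouse 3 (0.49, 0.155). Frmd8, which ends 4224 bases upstream on the same strand, was 22.4 ± 3.84 CPM in WT and 21.6 ± 5.69 CPM in GFAP-IL6 (log2(Fold-Change) -0.02, adjusted p = 0.995).

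Meg3 was 2091, 1895 and 1646 CPM in the WT mice and 2531, 2366 and 2601 CPM in the GFAP-IL6 mice, again with no overlap. The log2(Fold-Change) was 0.41 ± 0.10 (adjusted p = 0.0408), with values from 0.41 to 0.44 in the 4 combinations, all of which passed. It was lost without WT mouse 2 (0.42, adjusted p = 0.185), WT mouse 3 (0.33, 0.114), GFAP-IL6 mouse 1 (0.40, 0.0740), mouse 2 (0.45, 0.0701) or mouse 3 (0.38, 0.209). Mirg, a second transcript of the same imprinted domain, had 7.57 ± 1.54 and 10.1 ± 0.761 CPM with no overlap (log2(Fold-Change) 0.39 ± 0.17, adjusted p = 0.507).

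Malat1 was 17852, 14353 and 12923 CPM in WT and 26021, 19466 and 19427 CPM in GFAP-IL6. Every GFAP-IL6 mouse was higher, with a log2(Fold-Change) of 0.52 ± 0.13, and the adjusted p of 0.0543 missed the threshold. DESeq2 gave 0.52 with an adjusted p of 0.00393, each of the 4 combinations alone gave 0.00985 to 0.0310, and the range over all alternatives was 6.44e-06 to 0.282. Without WT mouse 1 the adjusted p was 0.0138 and without GFAP-IL6 mouse 3 it was 0.0476. Its level was higher in GFAP-IL6 under each alternative run. Miat, a neuronal transcript, was 43.0 ± 6.55 CPM in WT and 54.8 ± 2.78 CPM in GFAP-IL6 (0.34 ± 0.11, adjusted p = 0.219), and without WT mouse 1 it passed (0.48, 0.0422).

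**Figure D4:**
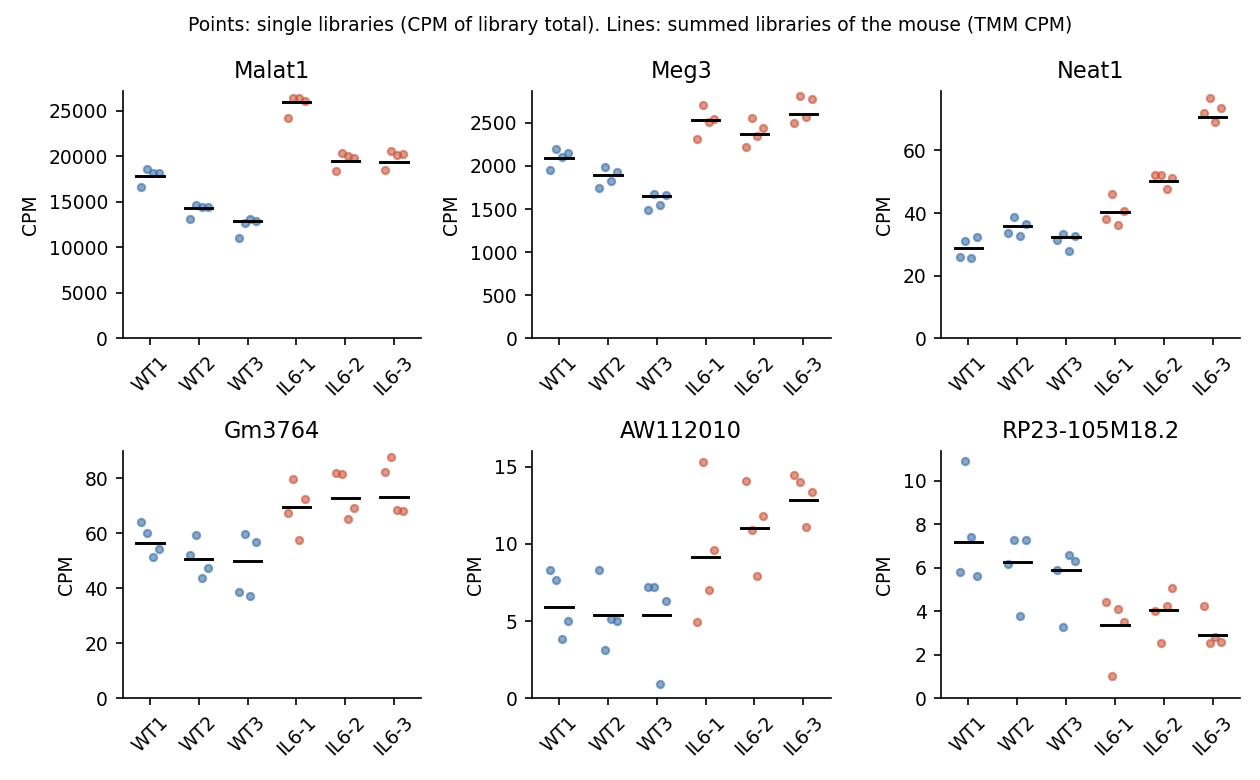
CPM of Malat1, Meg3, Neat1, Gm3764, AW112010 and RP23-105M18.2 in each library (points, scaled to the library total) and in the summed libraries of each mouse (black lines, TMM scaled), with points of WT in blue and of GFAP-IL6 in red (IL6-1 to IL6-3). The lines of the genotypes do not overlap in any panel, and the points of AW112010 and RP23-105M18.2, with 2 to 164 counts a library, scatter most.

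Among transcripts described in inflammation and immune cells, 4 were among the 200. Neat1 and AW112010 rose, and Malat1 and Pvt1 did not pass, where 1.74% of all genes tested rose. Neat1 and Malat1 were counted in the nuclear list as well. AW112010, known from activated immune cells, was 5.93, 5.37 and 5.38 CPM in the WT mice and 9.17, 11.02 and 12.8 CPM in the GFAP-IL6 mice. The WT mice differed little (SD 0.320 CPM) and all 3 GFAP-IL6 mice were higher, for a log2(Fold-Change) of 1.002 ± 0.17 (adjusted p = 0.00375). It passed without each mouse in turn, with 0.87 (adjusted p = 0.0497) the lowest value, without GFAP-IL6 mouse 3. The fold limit of 1 was missed without WT mouse 2 (0.97), WT mouse 3 (0.99) or GFAP-IL6 mouse 3. Its counts were low, and within single combinations the log2(Fold-Change) ran from 0.56 (2 ng, set A) to 1.26 (1 ng, set A) and passed only in 1 ng, set B (1.12, adjusted p = 0.0352). Pvt1 was 4.09 ± 0.022 CPM in WT and 4.93 ± 1.44 CPM in GFAP-IL6 (adjusted p = 0.882).

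RP23-105M18.2 (Gm43674 in vM21), a single-exon lincRNA on chromosome 3, was the member that fell. It was 7.17, 6.26 and 5.90 CPM in the WT mice and 3.37, 4.07 and 2.93 CPM in the GFAP-IL6 mice, with no overlap (log2(Fold-Change) -0.92 ± 0.21, adjusted p = 0.0354). Single libraries held 2 to 45 counts of it. The call held without WT mouse 3 (-0.97, 0.0397) and was lost without WT mouse 1 (-0.83, 0.183), WT mouse 2 (-0.95, 0.106), GFAP-IL6 mouse 1 (-0.91, 0.0724), mouse 2 (-1.07, 0.05004) or mouse 3 (-0.78, 0.280). It fell in all 4 combinations and passed only in 2 ng, set B (-1.78, adjusted p = 0.0250).

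A search of vM21 on the same strand found 35 microRNA hairpins inside 15 of the 192 lincRNAs with a record, and 10 snoRNAs inside 6. Precursors of miR-9, a microRNA abundant in the nervous system, lie in 3 of them: Mir9-1 in Gm3764, Mir9-2 in C130071C03Rik and Mir9-3 in AI854517 (Mir9-3hg in vM21). RefSeq (GRCm38.p6) gives the same mature sequence for all 3, with the seed (bases 2 to 8) in capitals, and it is shown because these host transcripts carry the same microRNA.
miR-9-5p in Gm3764 (chr3:88215613-88215635): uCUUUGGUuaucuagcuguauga
miR-9-5p in C130071C03Rik (chr13:83738821-83738843): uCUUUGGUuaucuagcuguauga
miR-9-5p in AI854517 (chr7:79505279-79505301): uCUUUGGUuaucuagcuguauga
miR-770-5p in Meg3 (chr12:109563710-109563731): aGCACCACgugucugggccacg
The last is shown because Meg3, its host, also rose, and its seed differs from that of miR-9-5p. Mature microRNAs carry no polyA tail and were not measured here.

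Gm3764 was 56.4, 50.5 and 49.96 CPM in the WT mice and 69.3, 72.7 and 73.3 CPM in the GFAP-IL6 mice. The genotypes are well apart, with a log2(Fold-Change) of 0.46 ± 0.09 (adjusted p = 0.0117). The call was lost without WT mouse 2 (0.43, 0.0999), GFAP-IL6 mouse 2 (0.45, 0.0654) or mouse 3 (0.44, 0.0895), and in each combination alone (0.38 to 0.52, adjusted p from 0.0538 to 0.241). AI854517 had the opposite sign, at 60.4, 51.2 and 49.96 CPM in WT and 40.2, 43.9 and 41.0 CPM in GFAP-IL6. Its groups do not overlap either, but the log2(Fold-Change) of -0.37 ± 0.10 did not pass (adjusted p = 0.0932). With no filter on low counts AI854517 passed (-0.37, edgeR adjusted p = 0.0289). C130071C03Rik overlapped between genotypes, at 28.2 ± 3.78 and 27.6 ± 2.397 CPM (-0.03 ± 0.12, adjusted p = 0.975). No test compared the 3 hosts with each other.

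Hairpins of miR-124, a neuronal microRNA, lie wholly inside Mir124a-1hg and Mir124-2hg, and a further one, Mir124a-3, overlaps the exon of Gm27032 without lying wholly inside it. Mir124a-1hg was 33.8, 30.5 and 27.7 CPM in WT and 34.1, 42.1 and 52.1 CPM in GFAP-IL6 (0.49 ± 0.14, adjusted p = 0.116). It passed without GFAP-IL6 mouse 1 (0.61, 0.0174) and with no filter on low counts (0.49, edgeR adjusted p = 0.00119). Mir124-2hg was 43.9 ± 0.726 and 45.8 ± 2.77 CPM (0.06 ± 0.09, adjusted p = 0.918), and Gm27032 16.98 ± 1.45 and 14.9 ± 3.503 CPM (-0.14 ± 0.16, 0.889). The list of microRNA hosts had 5 members, Mir124a-1hg, Mir124-2hg, Mirg, C130071C03Rik and AI854517, but not Gm3764 or Meg3. In the fit reported edgeR called 0 of them and DESeq2 called 0, while 3 had an unadjusted p under 0.05. Over all 15 lincRNAs with a hairpin, 2 were called, both higher, where 1.8% of all genes were called and 1.74% higher, and the median log2(Fold-Change) was 0.11 against -0.01 over all genes.

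None of the snoRNA hosts passed. The list had 6 members among the 200 (Snhg20, Snhg6, Snhg12, Epb4.1l4aos, Snora26 and Snhg18); vM21 places no snoRNA inside Snhg20, and the sixth host found by the search was Gm26512. For the list, edgeR and DESeq2 each called 0, with 0 at an unadjusted p under 0.05. Their log2(Fold-Change) ran from -0.23 for Epb4.1l4aos to 0.19 for the row named Snora26, which is Dancr in vM21, with a median of -0.12. Snhg12, host of 5 annotated snoRNAs, was 52.0 ± 1.85 CPM in WT and 47.8 ± 1.22 CPM in GFAP-IL6 with no overlap (adjusted p = 0.807). Snhg6 was 76.8 ± 5.25 and 67.9 ± 5.06 CPM, with no overlap (adjusted p = 0.658).

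Among lincRNAs of neural development and neurons, 6 were among the 200 and Meg3 alone rose, against 1.74% of all genes tested. Pantr1 was 231.0 ± 17.4 CPM in WT and 227.6 ± 11.8 CPM in GFAP-IL6 (-0.02 ± 0.09, adjusted p = 0.979). A830039N20Rik was 57.8 ± 2.85 and 53.9 ± 6.16 CPM, and Rmst, a regulator of neurogenesis, 4.48 ± 1.12 and 5.65 ± 0.845 CPM. Of the cytoplasmic and p53-linked list, 5 were among the 200; edgeR and DESeq2 each called 0, and 0 had an unadjusted p under 0.05. In it, 1700020I14Rik (Cyrano), which binds miR-7, was 298.0 ± 27.6 and 286.4 ± 42.4 CPM (-0.06 ± 0.11), and Lincpint 3.33 ± 0.522 and 4.44 ± 0.716 CPM (0.41 ± 0.24, adjusted p = 0.708). Neither rRNA-like locus, Yam1 or Gm26917, passed. The imprinted list had Meg3, which rose, and Mirg.

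Marker genes of other cells were read in the same mice. The summed level of 4 reactive astrocyte markers was 52.2 to 66.2 CPM in WT and 165.3 to 294.2 CPM in GFAP-IL6, and 3 of the 4 rose. For 5 microglia markers it was 199.9 to 220.9 and 292.6 to 370.4 CPM, with 4 higher, and for 4 endothelial markers 89.4 to 100.97 and 113.4 to 189.1 CPM, with 2 higher. None of these was at 0. The 5 markers of cortical excitatory neurons summed to 610.2 to 719.9 CPM in WT and 627.5 to 717.7 CPM in GFAP-IL6. The 5 astrocyte markers summed to 1114 to 1233 CPM in WT and 1252 to 1342 CPM in GFAP-IL6, which do not overlap. No tested marker of interneurons, astrocytes, oligodendrocytes, striatum, choroid plexus or blood passed, where only 3 of the 6 striatum markers were tested and 1 was at 0. Choroid plexus markers, mostly Ttr, ranged from 104.97 to 4065 CPM within WT and from 77.7 to 749.8 CPM within GFAP-IL6. The part of cell numbers in the differences of Neat1, AW112010, Gm3764, Meg3 and RP23-105M18.2 was not tested.

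Many of the lincRNAs lie beside coding genes. A coding gene on the same strand ended within 10 kb upstream of 21 of the lincRNAs, and 11 overlapped one. In all, 70 (7 of them also with such a neighbour) started within 1 kb of a coding gene that runs the other way. Across 19 pairs with a tested upstream gene the genotype log2(Fold-Change) of lincRNA and neighbour had a Pearson r of -0.46, across 8 overlapping pairs -0.14, and across 68 divergent pairs 0.02. Genes are not independent replicates, and these values only describe the pairs. RefSeq promoters, 250 bases before to 50 after a start, were found for 120 of the lincRNAs (145 windows). The STAT motif TTCNNNGAA, read on both strands, was in 5.52% of these and 8.30% of all 32851 windows. A motif of interferon-response type, GAAA followed by any 2 bases and GAAA again, was in 4.83% and 3.44%. Neither was in the windows of AW112010, Gm3764, Meg3 or Malat1, which says only that these letters are absent there.

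The amount of cDNA in tagmentation was compared within the same 6 mice. With 2 ng the 200 lincRNAs took a smaller share of counts than with 1 ng in all 6 mice, 3.42% ± 0.607 against 3.60% ± 0.653 (SD, n = 6), a mean difference of -0.180 percentage points (exact paired permutation test, two-sided, p = 0.031, the smallest possible). The difference was -0.336 in set A (exact p = 0.031) and -0.0136 in set B (exact p = 0.219). It was -0.0656 without the rRNA-like loci and -0.104 without Meg3 and Malat1 (exact p = 0.031 for both). With both sets summed, Malat1, Yam1 and Meg3 each took less with 2 ng in all 6 mice, and each was lowest in the 2 ng, set A library of all 6 mice. In set B alone the direction turned for Meg3, which took more with 2 ng in 6 of 6 mice (0.232% against 0.225%), and for Malat1, in 5 of 6 mice (1.89% against 1.86%), while Yam1 still took less in 6 of 6 (1.145% against 1.204%). The other 197 took more with 2 ng in 6 of 6 mice, 0.340% against 0.329% (exact p = 0.031). According to the methods, samples are pooled after reverse transcription and tagmented as pools. Mice of an amount and set may therefore share a reaction, and these p-values measure how alike the mice were rather than how alike repeat reactions would be.

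With genotype in the model, 9 of the 200 passed an adjusted p of 0.05 between 2 ng and 1 ng, against 12.3% of 13750 genes tested. They were 3 higher with 2 ng (5.57% of all genes) and 6 lower (6.76%). This model does not pair the sums of the same mouse. Its standard errors, and its calls without a mouse, therefore hold differences between mice as well. With the mouse as a block, which compares the libraries of the same animal, 40 passed (31.2% of all genes tested), of which 13 were higher (14.8%) and 27 lower (16.4%). Of the 200, 4.5% and 20% were called, shares below those of all genes in both models, and their median standard error in the first was 0.177 against 0.108. The range without each mouse was 4 to 13 calls in the first model, with 4 without WT mouse 1 or WT mouse 2 and 5 without GFAP-IL6 mouse 2 or 3, and set B alone gave 1. In set B alone none of the 9 passed. There the log2(Fold-Change) of 6330403K07Rik was 0.24 (0.28 in set A) and that of 1700086L19Rik 0.31 (0.32), while 2310010J17Rik had -0.41 (-1.15) and Gm26881 -0.15 (-0.54).

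The 6 with the smallest p in the unpaired model were 2900052N01Rik, D130017N08Rik, 2310010J17Rik, RP24-490H13.4, 6330403K07Rik and Gm26881. With the mouse as a block, the smallest edgeR adjusted p were those of Yam1 (7.94e-99), 6330403K07Rik (1.26e-42) and Malat1 (2.25e-30). Values here are CPM of the total. 2900052N01Rik was 32.1 at the lowest, 36.5 at the median and 43.5 at the highest with 2 ng, and 40.6, 45.8 and 61.4 with 1 ng. It was lower with 2 ng in all 6 mice (log2(Fold-Change) -0.38 ± 0.08, adjusted p = 0.00324), by -0.50 in set A and -0.25 in set B (adjusted p = 0.159). D130017N08Rik was 7.5, 12.003 and 14.6 with 2 ng and 14.9, 16.9 and 18.3 with 1 ng, with no overlap (-0.57 ± 0.13, adjusted p = 0.00501). 2310010J17Rik, divergent from Picalm, was 2.62, 3.30 and 3.73 against 4.38, 5.27 and 7.51, also without overlap (-0.76 ± 0.18, 0.00648), and the call was lost without WT mouse 2 (-0.59, 0.0607).

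RP24-490H13.4 was lower with 2 ng in 6 of 6 mice (-0.48 ± 0.13, adjusted p = 0.0176) and lost its call without WT mouse 1, WT mouse 2, GFAP-IL6 mouse 1 or GFAP-IL6 mouse 3 (adjusted p from 0.0506 to 0.0943). Gm26881, antisense to Fam214b, was lower in 6 of 6 (-0.34 ± 0.10, 0.0209), and lost it without WT mouse 1, WT mouse 2 or GFAP-IL6 mouse 2 (0.0620 to 0.0903). 6330403K07Rik was the abundant member that rose, at 530.2, 600.3 and 680.8 CPM with 2 ng and 419.7, 498.1 and 566.8 CPM with 1 ng, higher in 6 of 6 mice (0.25 ± 0.07, adjusted p = 0.0207). In this unpaired model it lost its call without WT mouse 2 (0.26, 0.0761) or GFAP-IL6 mouse 2 (0.25, 0.0602). Within single mice its log2 difference ran from 0.25 to 0.34. The other 3 called were Gm6117 (-0.88), A530017D24Rik (0.57) and 1700086L19Rik (0.31). Gm6117 lost its call without WT mouse 1, GFAP-IL6 mouse 2 or GFAP-IL6 mouse 3 (adjusted p from 0.0589 to 0.112). A530017D24Rik lost it without each mouse other than GFAP-IL6 mouse 2 (0.0512 to 0.152), and 1700086L19Rik without each mouse other than WT mouse 3 (0.0605 to 0.111). None of the 9 passed between genotypes. Malat1 (-0.10), Yam1 (-0.20), Meg3 (-0.06), Pantr1 (-0.15) and Mir124a-1hg (-0.29) were lower in all 6 mice over both sets summed and passed with the mouse block, as did Gm3764 (0.19, higher in 5 of 6 after TMM scaling) and AW112010 (0.34, higher in 6 of 6).

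**Figure D5:**
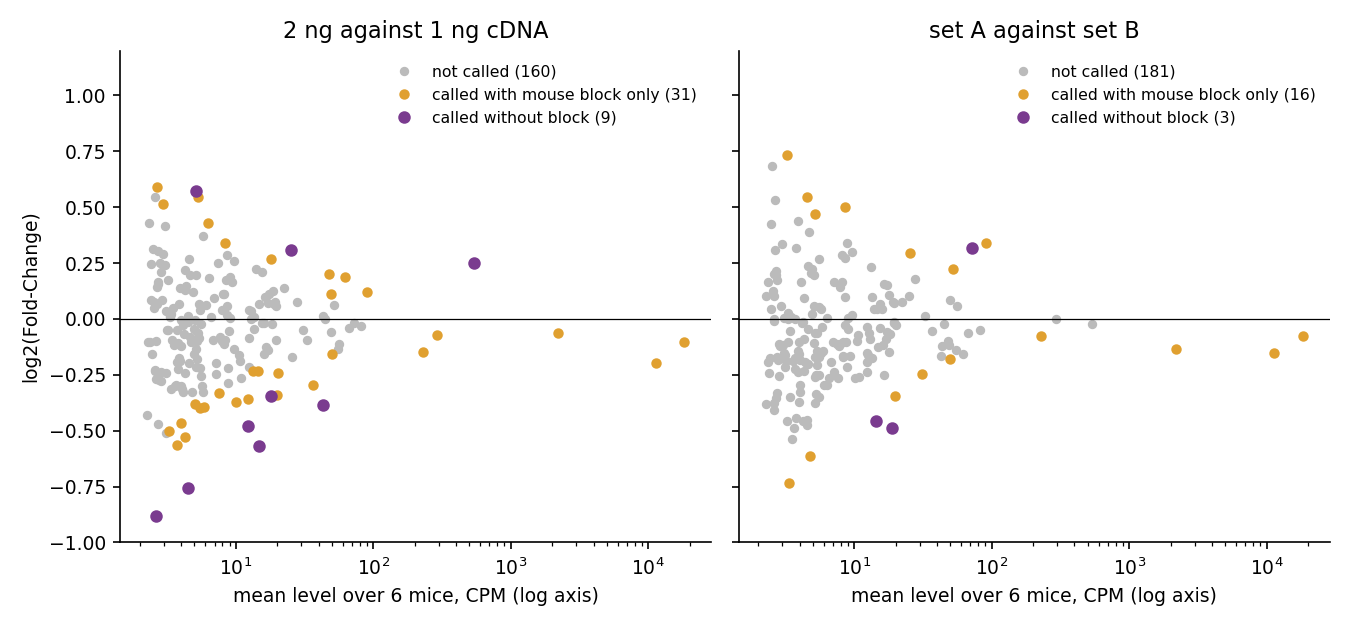
log2(Fold-Change) of the 200 lincRNAs between 2 ng and 1 ng of cDNA (left) and between sets A and B (right) against mean CPM over 6 mice (log axis). Purple points passed with genotype in the model (9 and 3), orange points passed only with the mouse as a block (31 and 16), and the 3 most counted lincRNAs, at the right of each panel, lie between -0.20 and -0.06.

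Between sets A and B the same direction was seen for the share of counts, 3.41% ± 0.617 in set A against 3.62% ± 0.650 in set B (SD, n = 6), lower in set A in all 6 mice (-0.206 percentage points, exact p = 0.031, the smallest possible). The difference was -0.382 among 2 ng libraries and -0.0599 among 1 ng libraries, with the same p. It was -0.0984 without the rRNA-like loci and -0.110 without Meg3 and Malat1, again with the same p. The other 197 did not follow it (0.332% against 0.335%, higher in set A in 3 of 6 mice, exact p = 0.375).

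With genotype in the model and mice again unpaired, 3 single lincRNAs passed between the sets, against 6.97% of 13934 genes. Of these, 1 was higher in set A (5.01% of all genes) and 2 lower (1.96%). With the mouse block 19 passed (21.7% of all genes tested), 8 higher (11.4%) and 11 lower (10.3%). Among 1 ng libraries alone none of the 3 passed. Snhg6 was 63.6, 83.2 and 92.8 CPM at the lowest, median and highest in set A and 60.8, 64.6 and 69.9 CPM in set B. It was higher in set A in 6 of 6 mice (0.32 ± 0.07, adjusted p = 0.00571), by 0.46 with 2 ng and 0.25 with 1 ng. RP24-317M4.6 was lower in set A in 6 of 6 mice, at 12.05, 15.6 and 20.6 against 18.8, 20.3 and 26.8 CPM (-0.49 ± 0.13, 0.0194), and lost its call without WT mouse 1 (-0.39, 0.123) or GFAP-IL6 mouse 2 (-0.43, 0.112). Gm10419, on the other strand at the same place and the 14th most counted of the 200, went the other way, 56.9 ± 5.10 against 48.0 CPM (0.22, adjusted p = 0.138). It passed with the block (0.21, 0.00480) and among 2 ng libraries alone (0.29, 0.0224), and is named here after its values were seen. 1600020E01Rik, divergent from Pcbp1, was lower in set A in 5 of 6 mice (-0.46 ± 0.13, 0.0363), and it lost its call without WT mouse 1, 2 or 3 or GFAP-IL6 mouse 2 (adjusted p from 0.0543 to 0.171).

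Whether the genotype difference itself changed with the cDNA amount was tested by an interaction term with the mouse in the model. edgeR called 0 of the 200, against 0% of 14261 genes, and 9 (4.5%) had an unadjusted p under 0.05, against 3.86% of all genes. For the 5 lincRNAs called between genotypes the interaction was 0.02 for Meg3, 0.07 for Gm3764, 0.06 for Neat1, -0.32 for AW112010 and -0.26 for RP23-105M18.2.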

How the data were processed

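Frontal cortex RNA of 6 mice was measured in 24 libraries, grouped by their titles. Per the study's methods, the authors trimmed polyA, aligned reads to mm10 with STAR 2.4 and counted unique alignments on GENCODE vM6 genes with featureCounts. The submitters' notes also name Subread. The deposited values are raw counts per gene, not normalized; every column belongs to a labelled library. Library totals ran from 1524165 to 12256374, and the counts are of PCR reads without molecular identifiers.

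Counts were summed per mouse, per mouse and amount, or per mouse and set. All genes were fitted with edgeR 4.0.16 (R 4.3.3; quasi-likelihood test, TMM, filterByExpr, total over all genes as library size) with Benjamini-Hochberg adjustment over all genes tested; ± after a log2(Fold-Change) is its standard error. TMM factors were 0.971 to 1.03. Shares were compared by exact permutation tests over mice (Python 3.11.15, numpy 2.4.6, pandas 2.3.3). The fits were tested on simulated data first, where each sum was drawn independently, so that sums of 1 mouse were not tied. There the genotype fit found 35.8% of genes changed by 0.5 on the log2 scale and 74.2% of those changed by 1.

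Members and lists were chosen with earlier results of these data known. Named are the 12 most counted, every DEG and up to 12 others that passed between genotypes, the 6 with the smallest p between amounts and between sets, list members, ranks 199 to 202, upstream neighbours, Il6 and Gfap; other names were added after their values were seen. The same-numbered libraries of amounts and sets come from 1 mouse, so the mouse block pairs them by origin. Positions and ends are from GENCODE vM21 on mm10 and matched by identifier. Alternatives were DESeq2 1.42.0, its size factors, other filters, blocks, leaving out mice, single combinations and thinning.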

Additional observations from a re-analysis of the deposited data

Results flagged for a closer look

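For each lincRNA that passed between amounts or between sets, with or without the mouse block, and for the share of the 200, the differences within the 6 mice were examined for 1 value far from the rest. In 7 of these 61 sets of values the gap to the nearest other value was a large part of the whole range, where chance alone flags about 1 in 20. Between 2 ng and 1 ng, the gap was 0.851 of the range for Malat1 (log2 difference -0.13 in WT mouse 3, -0.05 to -0.04 in the others). It was 0.657 for Yam1 (-0.08 in WT mouse 3, -0.21 to -0.16 in the others) and 0.774 for Mir124a-1hg (-0.03 in WT mouse 3, -0.32 to -0.26 in the others). WT mouse 3, which had the lowest total, stood apart in all 3. For A530017D24Rik it was 0.749 (-0.07 in GFAP-IL6 mouse 2, 0.66 to 0.90 in the others). Between sets A and B, the gap was 0.657 for Snhg6 (0.06 in GFAP-IL6 mouse 1, 0.33 to 0.47 in the others) and 0.640 for Snhg12 (-0.51 in GFAP-IL6 mouse 1, -0.21 to -0.04 in the others). For D230017M19Rik it was 0.701 (0.66 in WT mouse 1, -1.02 to -0.52 in the others).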

How the results depend on the processing

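The number of DEGs among the 200, 1 in the fit reported, was 0 by DESeq2, with DESeq2 size factors, with the replicate block of same-numbered mice, in 2 ng set A, in 1 ng set A and after thinning to equal totals. It was 2 with no low-count filter and 2 in 1 ng set B, and 0 to 2 without each mouse. The number passing between genotypes, 5, was 10 with no filter, 3 in 2 ng set A, 3 in 1 ng set A, 3 after thinning, 6 by DESeq2, and 1 to 7 without each mouse; it stayed 5 with the replicate block, with Malat1 in place of RP23-105M18.2. For same-numbered mice of the 2 genotypes the correlations of deviations from the group means were -0.045, -0.030 and -0.031. For the other pairs they ran from -0.080 to 0.125. Deviations from a mean of 3 mice are tied to each other, so these values cannot tell which mice shared more than a number. With 9 calls between amounts, the mouse as replicate block gave 40, set B alone 1 and leaving out a mouse 4 to 13. With 3 between sets, the block gave 19, DESeq2 6, no filter 5, 2 ng alone 14, 1 ng alone 0 by edgeR, and leaving out a mouse 2 to 4. Apart from the mouse block, calls over all genes under these alternatives are not given here. A change in the calls of the 200 can therefore not be set against that of all genes. The share difference between genotypes was 0.769 without the rRNA-like loci, -0.325 without Meg3 and Malat1, and -0.0817 to 0.693 without each mouse. The share difference between amounts was -0.190 to -0.162 without each mouse, and that between sets -0.216 to -0.194, where an exact test over 5 mice cannot give a p under 0.0625. Both were smaller without the rRNA-like loci (-0.0656 between amounts, -0.0984 between sets) and without Meg3 and Malat1 (-0.104 and -0.110). In set B alone, an alternative chosen after seeing the data, the difference between amounts was -0.0136 (exact p = 0.219). Of 224 alternative values for single lincRNAs called, 150 kept their call, 74 lost it and 0 changed sign. The cause of these changes was not tested. Low counts limit lincRNAs below rank 100, with 272 to 639 counts over 24 libraries.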
